A study of Mus musculus with 8 samples.

Results

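The enteroendocrine hormones and regulators of the mouse colon were followed here through 10 genes chosen by symbol: the granins Chga and Chgb, the peptide hormones Gcg, Pyy, Insl5, Cck and Sst, the serotonin-making enzyme Tph1, and the transcription factors Neurod1 and Neurog3. Each was taken as the row carrying that symbol, and for a symbol carried by several rows the row with the highest mean was to be used. They were 10 of 52143 gene rows, which held 51425 distinct symbols and 718 repeats. Of the 10, 7 reached an abundance of at least 1 in TPM, a length-corrected share of all transcripts, in at least 4 samples and entered the test between groups, as did 13164 of all rows. Neurog3 reached that level in 3 samples, and Cck and Neurod1 in 1 sample each, so these 3 are described by their levels.

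Enteroendocrine cells are scattered, hormone-secreting cells of the gut epithelium that arise from crypt progenitors once Neurog3 is switched on, with Neurod1 acting after it. They store their products in dense granules built with chromogranins and release them toward nerves, neighboring cells and the blood when they sense nutrients, microbial products or irritants. In the distal colon the best known kinds are L cells, which make proglucagon products, peptide YY and insulin-like peptide 5, enterochromaffin cells, which make serotonin, and D cells, which make somatostatin.

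RNA of distal colon was sequenced in bulk from female mice, 8 weeks old when treated, in 2 groups of 4 samples. Control mice carried Villin1-Cre-ERT alone, a tamoxifen-inducible Cre recombinase under the promoter of Villin1, a gene of the intestinal epithelium. SiglecXII mice were littermates that carried, beside the same Cre, 1 conditional copy of human SIGLEC12. It was placed at the ROSA26 locus behind a floxed stop cassette, so that Cre would switch on Siglec-XII. This receptor of the sialic acid-binding Siglec family is absent from mice, and the authors describe the human form as unable to bind sialic acids. Both groups were given tamoxifen (10 mg/ml stock) on 5 consecutive days and were killed on day 12, 7 days after the last injection, so that by this description the Cre and the drug were common to both groups. By that description the comparison asked what the human receptor alone, without a carcinogen, did to expression in the colon. The Cre-ERT is a fusion with an estrogen receptor, and the estrogen receptor gene Esr1 averaged 1.81 in Control and 4.58 in SiglecXII (log2(TPM + 1)). Whether the Cre was equal in both groups was not tested. The labels state 3 mice per condition while listing 4 samples in each group, and the methods mention technical replicate libraries, so the p-values measure only the spread between the listed samples. The human transcript had no row in the table and its level was not measured here.

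Expression was given as log2(TPM + 1), which scales every sample to the same total and keeps no read counts. The depth behind each value was therefore unknown and no counting interval was computed. Markers of the tissue were abundant, with a mean of 4553 TPM for the epithelial keratin Krt8, 2540 TPM for the colonocyte carbonic anhydrase Car1 and 5679 TPM for the goblet cell lectin Zg16.

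SiglecXII 3 and SiglecXII 4 stood apart from the other 6 samples. On the first principal component, which held 40.3% of the variance, they lay at 36.2 and 50.2, and the others lay between -29.0 and -4.80. Control 1 stood apart on the second component, which held 28.7%, with a score of 47.7. These 3 samples also had the lowest limma array weights, at 0.411 for SiglecXII 3, 0.187 for SiglecXII 4 and 0.362 for Control 1. Mitochondrial transcripts made up 10.0% of TPM in SiglecXII 3 and 12.8% in SiglecXII 4, against 5.74% to 8.80% in the other samples. The median tested gene was lower by -0.23 (log2) in SiglecXII 3 and -0.37 in SiglecXII 4 relative to the mean of all 8 samples, so that the groups differed by -0.21 in this median shift (0.11 ± 0.09 in Control and -0.11 ± 0.23 in SiglecXII, SD, n = 4 each). Member differences are therefore given as deposited, relative to the median gene and without SiglecXII 3 and 4.

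All 10 members were found in the GENCODE M21 annotation of GRCm38. Chga (ENSMUSG00000021194) lies at chr12:102554969-102565028 on the plus strand and Chgb (ENSMUSG00000027350) at chr2:132781278-132795079 on the plus strand. Gcg (ENSMUSG00000000394, chr2:62474530-62483650), Pyy (ENSMUSG00000017311, chr11:102106676-102107832), Insl5 (ENSMUSG00000066090, chr4:103017872-103026842), Cck (ENSMUSG00000032532, chr9:121489824-121495694) and Sst (ENSMUSG00000004366, chr16:23889573-23890958) are all on the minus strand. Tph1 (ENSMUSG00000040046) lies at chr7:46644641-46672537 and Neurod1 (ENSMUSG00000034701) at chr2:79452521-79456751, both on the minus strand, and Neurog3 (ENSMUSG00000044312) at chr10:62133090-62134763 on the plus strand. No other annotated gene overlapped the granins, the 5 peptide hormones or Tph1.

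In Control colon the hormone profile was led by L-cell transcripts. Pyy, the satiety and antisecretory peptide of L cells, averaged 356 ± 37.9 TPM (SD, n = 4) and stood above 97.2% of the tested genes. Insl5, the insulin-like peptide of colonic L cells, followed at 135 ± 19.9 TPM, above 92.7% of them. Gcg, the proglucagon gene whose products in L cells are the glucagon-like peptides, averaged 37.6 ± 5.76 TPM, and the granins were close to it, with 37.4 ± 9.74 TPM for Chgb and 34.6 ± 6.44 TPM for Chga. Sst, the inhibitory hormone of D cells, averaged 10.2 ± 2.45 TPM and Tph1, the rate-limiting enzyme of serotonin synthesis outside the nervous system, 5.26 ± 1.31 TPM. Both transcription factors and Cck, a hormone better known from the small intestine, were near or under 1 TPM, at 1.09 ± 0.469 TPM for Neurog3, 0.946 ± 0.174 TPM for Neurod1 and 0.653 ± 0.308 TPM for Cck.

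Not every step of this order was larger than its spread. Within each Control sample Pyy exceeded Insl5 by 1.40 ± 0.14 (log2 level, SD, n = 4) and Insl5 exceeded Gcg by 1.82 ± 0.06, with no overlap of the samples at either step. Gcg, Chgb and Chga could not be ordered, since Gcg differed from Chgb by 0.03 ± 0.43 and Chgb from Chga by 0.09 ± 0.17. Chga exceeded Sst by 1.68 ± 0.46, Sst exceeded Tph1 by 0.84 ± 0.58 and Tph1 exceeded Neurog3 by 1.59 ± 0.38, each in 4 of 4 samples. Neurog3, Neurod1 and Cck again did not differ beyond their spread, with steps of 0.08 ± 0.33 and 0.25 ± 0.27.

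**Figure D1:**
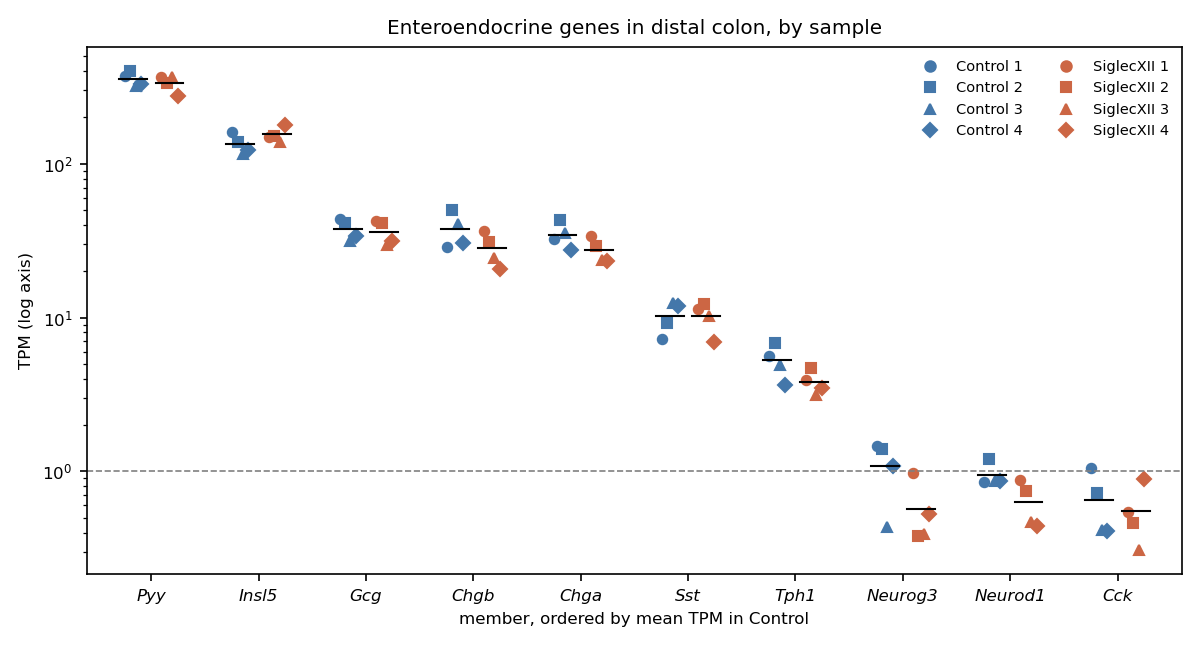
TPM on a log axis of the 10 members in each of the 4 Control (blue) and 4 SiglecXII (orange) samples, with the group mean as a bar, the replicate number as the marker shape and 1 TPM as the dashed line. The groups overlapped for every member, Pyy and Insl5 stood highest in all 8 samples, and Neurog3, Neurod1 and Cck sat around or under 1 TPM.

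None of the 7 tested members passed the test between groups. In limma, 0 of 7 had an unadjusted P of at most 0.05, a level that 1167 of 13164 tested genes (8.87%) reached, 157 of them higher and 1010 lower in SiglecXII. That split turned to 704 higher and 408 lower after quantile normalization and to 1137 higher and 285 lower with each sample centred on its median gene, but not with each sample centred on the pan-epithelial markers, where it was 180 higher and 1135 lower. The count also rested on single libraries, at 2365 without SiglecXII 1, 664 without Control 4, 563 without SiglecXII 4, 483 without SiglecXII 3 and 362 without both SiglecXII 3 and 4. An adjusted p of at most 0.05 was likewise reached by 0 of 7 members in limma, with a smallest adjusted p of 0.515, and by 5 of the 13164 genes (0.038%). Those 5, named after their values were seen, were Gm13394, Gm45063, Prh1, Gm7336 and Esr1, all higher in SiglecXII and none of them a known enteroendocrine hormone. The count was 3 without SiglecXII 1, 2 without SiglecXII 2 and 3 without SiglecXII 4. SiglecXII and Control samples did not overlap in 673 tested genes (5.11%) and in 0 of the 10 members. Across the 7 tested members the median difference was -0.09 (log2, SiglecXII minus Control), with 2 higher and 5 lower, beside a median of -0.15 over all tested genes, with 2888 higher and 10276 lower. Centred on the median gene these medians became 0.12 for the members and 0.06 for all tested genes, and without SiglecXII 3 and 4 they were -0.03 and 0.00.

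Chga encodes chromogranin A, a protein of the dense-core granule matrix used as a marker of enteroendocrine cells at large. It measured 32.5, 43.0, 35.4 and 27.6 TPM in Control 1 to 4, and 33.7, 29.3, 23.8 and 23.2 TPM in SiglecXII 1 to 4. The SiglecXII values all lay under the Control mean and SiglecXII 3 and 4 were the lowest of all 8, while SiglecXII 1 and 2 sat among the controls. The limma difference was -0.32 (log2, SE 0.166, 95% interval -0.70 to 0.05) with an unadjusted P of 0.0852 and an adjusted p of 0.515. Relative to the median gene it was -0.11, and without SiglecXII 3 and 4 it was -0.12. In tissue measured in bulk, fewer enteroendocrine cells and less RNA per cell cannot be told apart, for Chga or for any other member.

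Chgb encodes chromogranin B, the second granin, which is carried in the same granules. Its values were 28.9, 49.9, 40.3 and 30.5 TPM in Control 1 to 4, and 36.7, 30.8, 24.3 and 20.8 TPM in SiglecXII 1 to 4. Control 2 was the highest sample and SiglecXII 4 the lowest, as for Chga, and all 4 SiglecXII samples lay under the Control mean in TPM, while SiglecXII 1 lay just above it on the log2 scale. The limma difference of -0.40 (SE 0.218, 95% interval -0.89 to 0.10) had an unadjusted P of 0.103 and an adjusted p of 0.515. It shrank to -0.18 relative to the median gene and to -0.12 without SiglecXII 3 and 4. With samples centred on the mean of 12 pan-epithelial markers the difference was -0.31 and its unadjusted limma P was 0.0238, with an adjusted p of 0.498 in a range of 0.270 to 0.991 over the alternatives.

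The RefSeq start regions of both granins and of Sst hold a spelling of the cAMP response element, and they are shown because Chga and Chgb varied together across samples. Whether the spelling has a part in varying together was not tested. Sst, which has it, had r = 0.194 with Chga and 0.435 with Chgb over the 8 samples. Tph1, which lacks it, had r = 0.872 with Chga and 0.739 with Chgb. Sequence came from RefSeq (GRCm38.p6), in which all 10 members were found with 13 start sites between them. The palindrome TGACGTCA, searched on both strands in the 250 bases before each start, was present in 1.55% of 32851 windows and in those of Chgb and Sst. Its shorter form TGACGT, which every TGACGTCA contains, was present in 6.47% of windows and in those of Chga, Chgb and Sst. The match began 44 bases before the start in Chga, 72 bases before it in Chgb and 48 bases before it in Sst. Capitals mark the matches in stretches of 30 bases, read 5′ to 3′ on the strand of the gene, at chr12:102554885-102554914 for Chga, chr2:132781558-132781587 for Chgb and chr16:23890875-23890904 for Sst. The RefSeq starts of Chgb and Sst lie inside the GENCODE genes, so their stretches fall within the annotated gene bounds, whereas that of Chga lies before its gene. A match describes the letters only.
Chga: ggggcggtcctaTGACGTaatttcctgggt
Chgb: ggggctgctccgTGACGTCAgggctgagcg
Sst: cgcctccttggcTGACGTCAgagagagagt

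Among the L-cell hormones, Gcg measured 43.9, 40.9, 31.6 and 33.9 TPM in Control 1 to 4, and 42.6, 41.1, 29.4 and 31.3 TPM in SiglecXII 1 to 4. Samples 1 and 2 were high and samples 3 and 4 low in each group, and SiglecXII 3 and 4 lay just under the lowest control. The labels do not pair the replicate numbers, and the likeness of the 2 groups is given as a description. The limma difference of -0.06 (SE 0.159, 95% interval -0.42 to 0.30, unadjusted P 0.703, adjusted p 0.855) turned to 0.15 relative to the median gene, to 0.02 relative to the pan-epithelial markers and to 0.16 without SiglecXII 3 and 4.

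Pyy measured 374, 401, 322 and 328 TPM in Control 1 to 4, and 364, 333, 366 and 276 TPM in SiglecXII 1 to 4. SiglecXII 4 was the lowest sample, under every control, and the other SiglecXII samples fell within the Control range. The limma difference was -0.09 (SE 0.118, 95% interval -0.36 to 0.18) with an unadjusted P of 0.457, and it turned to 0.12 relative to the median gene. It was -0.0024 without SiglecXII 4 alone and -0.03 without SiglecXII 3 and 4. As deposited, the interval of Pyy was the narrowest among the tested members and put its change between 0.780-fold and 1.13-fold on the scale of TPM + 1. Both the rank and these limits hold for that scale only. The SE of Pyy was 0.127 relative to the median gene. Relative to the pan-epithelial markers it was 0.152, above the 0.115 of Chga and of Chgb.

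Insl5 differed in the positive direction. It measured 161, 138, 116 and 124 TPM in Control 1 to 4, and 150.1, 152, 139 and 179.8 TPM in SiglecXII 1 to 4. Each SiglecXII sample lay above the Control mean, but Control 1 exceeded 3 of them, and only SiglecXII 4 lay above every control. The limma difference was 0.21 (SE 0.124, 95% interval -0.07 to 0.49) with an unadjusted P of 0.129 and an adjusted p of 0.515. Insl5 was the tested member whose difference stayed above 0 in all 19 alternatives, from 0.14 without SiglecXII 4 to 0.42 relative to the median gene, and was 0.18 without SiglecXII 3 and 4. Its unadjusted limma P passed 0.05 in 3 of these, at 0.00890 with array weights, 0.0286 without Control 1 and 0.0256 without Control 1, SiglecXII 3 and SiglecXII 4 together, the last chosen after seeing the data. The adjusted p ranged from 0.238 to 0.991 over the alternatives.

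The make-up of the summed hormone signal differed most in SiglecXII 4. The 10 members summed to 619 ± 66.1 TPM in Control and 598 ± 41.8 TPM in SiglecXII, and the 5 peptide hormones to 539 ± 57.4 and 537 ± 30.8 TPM (SD, n = 4 each). Pyy took 57.6% ± 0.690 of the 10-member sum in Control and 55.9% ± 4.33 in SiglecXII, and Insl5 took 21.8% ± 2.04 and 26.2% ± 4.68. In SiglecXII 4 Pyy took 50.8% and Insl5 33.1%. The other SiglecXII samples held Insl5 shares of 23.3% to 25.2%, within or just above the Control range of 19.96% to 24.6%.

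Gcg and Insl5 share a further spelling near their starts, the sequence CAGATG, which is 1 of the forms of the E-box CANNTG. It is shown because basic helix-loop-helix factors such as Neurod1 and Neurog3 are known to bind E-boxes. CAGATG was present on either strand in 14.4% of the 32851 windows and in those of Gcg, Insl5 and Cck, beginning 139 and 83 bases before the start of Gcg, 178 before a start of Insl5 and 30 before the start of Cck. The wider form CANNTG was in 66.2% of windows and in those of 9 members, all but Tph1, so its presence separates little. TATAAA, which does not overlap these matches, was in 12.4% of windows and in those of Gcg and Insl5. Insl5 has 2 RefSeq starts, and the window before the other start holds no CAGATG. Capitals mark CAGATG in the 250 bases before the start of Gcg (chr2:62483654-62483903, minus strand) and in 136 bases upstream of the annotated first exon of Insl5 (chr4:103026843-103026978, minus strand), both from RefSeq on GRCm38.p6. The Insl5 stretch lies between its 2 RefSeq starts.
Gcg: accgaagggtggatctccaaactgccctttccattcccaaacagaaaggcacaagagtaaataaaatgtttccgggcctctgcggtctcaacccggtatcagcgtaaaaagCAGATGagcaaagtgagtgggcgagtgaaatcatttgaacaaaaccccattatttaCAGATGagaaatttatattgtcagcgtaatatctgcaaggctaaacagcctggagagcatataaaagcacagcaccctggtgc
Insl5: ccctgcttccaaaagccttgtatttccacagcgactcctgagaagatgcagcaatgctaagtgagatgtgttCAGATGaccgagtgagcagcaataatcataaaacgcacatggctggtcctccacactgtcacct

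Sst measured 7.20, 9.20, 12.5 and 11.9 TPM in Control 1 to 4, and 11.4, 12.3, 10.2 and 6.92 TPM in SiglecXII 1 to 4. Its lowest samples were SiglecXII 4 and Control 1, and SiglecXII 1 and 2 lay above the Control mean of 10.2 TPM, with SiglecXII 3 close to it. The limma difference was 0.00 (SE 0.214, 95% interval -0.48 to 0.49, unadjusted P 0.995), became 0.21 relative to the median gene, 0.23 without SiglecXII 3 and 4, and -0.14 without Control 1. Sst is also made by enteric neurons, whose 15 markers summed to 20.97, 9.72, 11.5 and 14.7 TPM in Control 1 to 4 and 9.66, 8.68, 8.07 and 8.63 TPM in SiglecXII 1 to 4. The part of neurons in the Sst signal was not tested.

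Cck stayed at trace levels, with 1.06, 0.728, 0.417 and 0.411 TPM in Control 1 to 4 and 0.547, 0.464, 0.308 and 0.888 TPM in SiglecXII 1 to 4. Control 1 and SiglecXII 4 were its highest samples and SiglecXII 3 its lowest, and the groups overlapped. Without the filter on low values the limma difference was -0.09 (unadjusted P 0.614), and the difference was 0.13 relative to the median gene, -0.12 without SiglecXII 3 and 4 and 0.02 without Control 1. The centring adds the same amount to every gene, so for a gene this scarce the turn to 0.13 decides nothing.

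Tph1 measured 5.61, 6.82, 4.94 and 3.67 TPM in Control 1 to 4, and 3.92, 4.70, 3.13 and 3.51 TPM in SiglecXII 1 to 4. Every SiglecXII sample lay under the Control mean and SiglecXII 3 was the lowest, but Control 4 was under SiglecXII 1 and 2. The limma difference of -0.36 (SE 0.185, 95% interval -0.78 to 0.05) had the smallest unadjusted P of the tested members, 0.0795, and an adjusted p of 0.515. It was -0.15 relative to the median gene and -0.22 without SiglecXII 3 and 4. Without Control 4 it was -0.50 and the unadjusted limma P was 0.0219, with an adjusted p of 0.695 in a range of 0.316 to 0.991 over the alternatives. Leaving out Control 4 moved Chga in the same way, to -0.42 with an unadjusted limma P of 0.0371 and an adjusted p of 0.695. Leaving out SiglecXII 1 gave unadjusted limma P values of 0.0327 for Chga and 0.0389 for Chgb, with an adjusted p of 0.270 each. In these settings 664 and 2365 of all 13164 tested genes passed unadjusted P.

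Mast cells of rodents also use Tph1, and the mean of 10 mast cell markers was lower in SiglecXII by -0.15 (log2), from 0.81 ± 0.08 to 0.67 ± 0.01 (SD, n = 4 each). The largest difference in the list, named after its values were seen, was that of Gata2 (1.70 against 0.196 TPM), while the other 9 markers averaged -0.05 and ranged from -0.19 to 0.20. The exact permutation p of 0.0286 was the smallest that 70 labelings can give, and the adjusted p over 12 marker lists was 0.137. Relative to the median gene the difference turned to 0.07. The centring adds the same amount to every gene, also to those at or near 0 TPM, so for this list the turn decides nothing. The list summed to 12.3, 18.1, 13.9 and 14.6 TPM in Control 1 to 4 and 12.5, 11.1, 11.7 and 11.1 TPM in SiglecXII 1 to 4, with Kit as its most abundant gene (6.56 TPM over all samples), Ms4a2 at 0 in all samples and 7 of the 10 markers under 1 TPM throughout. The part of mast cells in the Tph1 result was not tested.

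Neurog3, the factor that commits a crypt progenitor to the endocrine fate, measured 1.46, 1.39, 0.432 and 1.08 TPM in Control 1 to 4, and 0.971, 0.380, 0.393 and 0.525 TPM in SiglecXII 1 to 4. Control 3 was as low as the SiglecXII samples, and the other controls were above them all. Neurod1, which acts after Neurog3 in endocrine differentiation, measured 0.854, 1.21, 0.861 and 0.862 TPM in Control 1 to 4, and 0.875, 0.745, 0.468 and 0.439 TPM in SiglecXII 1 to 4. SiglecXII 3 and 4 were again the lowest, and SiglecXII 1 exceeded 3 of the 4 controls.

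For both factors every SiglecXII sample lay under the Control mean. Without the filter the limma difference was -0.40 (95% interval -0.88 to 0.08, unadjusted P 0.0927) for Neurog3 and -0.26 (95% interval -0.56 to 0.04, unadjusted P 0.0819) for Neurod1. Relative to the median gene these were -0.19 and -0.05, and without SiglecXII 3 and 4 they were -0.31 and -0.10. The centring adds the same amount to every gene at any level, so for factors this scarce the smaller centred differences decide nothing. At these levels the pseudocount sets the size of the difference, which was -0.80 for Neurog3 and -0.55 for Neurod1 with 0.1 in place of 1. Neurog3 overlaps the protein-coding gene Fam241b, which is on the opposite strand and measured 23.8 to 31.2 TPM. Of the short sequence words of Neurog3 transcripts, 14.6% also occur in Fam241b. Neurod1 overlaps Cerkl on its own strand and Gm26755 on the other, which reached at most 0.423 and 0.0214 TPM, and shares 11.2% of its sequence words with other genes. Whether reads of these neighbors were counted for either factor was not tested, since the strand setting of the quantification is not stated.

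**Figure D2:**
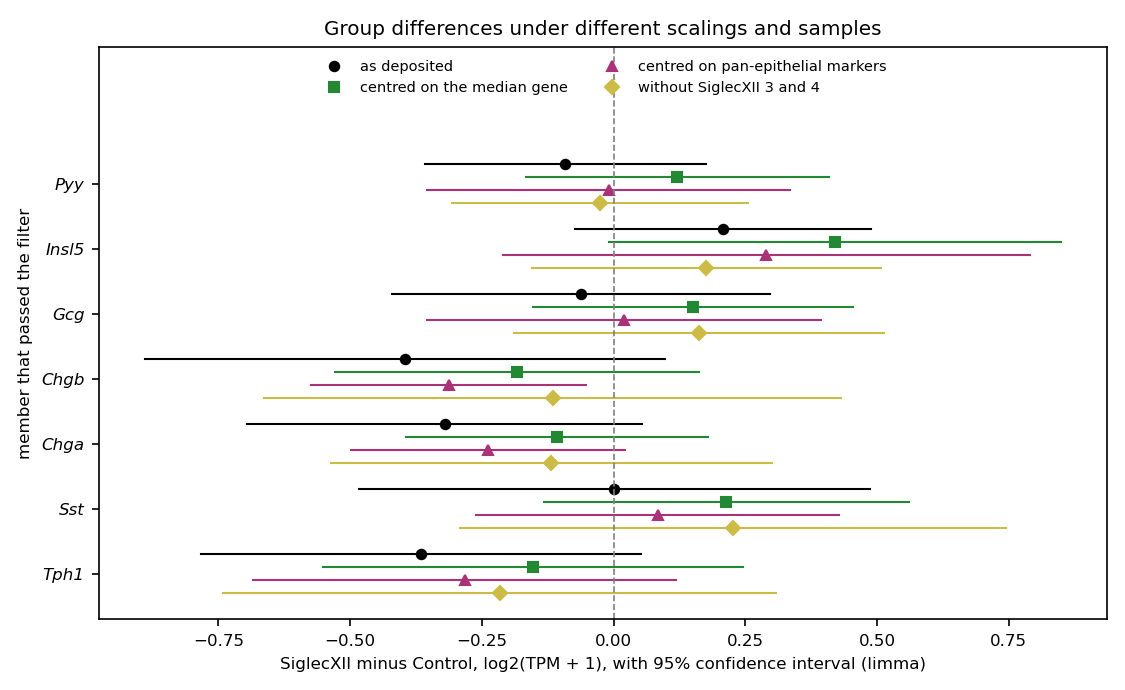
Difference between groups (SiglecXII minus Control, log2(TPM + 1), horizontal axis) with its 95% limma interval for the 7 tested members, as deposited, relative to the median gene, relative to the pan-epithelial markers, and without SiglecXII 3 and 4. Chga, Chgb and Tph1 were under 0 and Insl5 above 0 in all 4 settings, Gcg turned from -0.06 to 0.15 and Pyy from -0.09 to 0.12 relative to the median gene, and the interval of Chgb relative to the pan-epithelial markers was the only one drawn that left out 0.

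Ratios between members were taken within each sample, as differences of log2(TPM + 1). Each ratio also carries the difference of its reference, which was -0.32 for Chga and -0.40 for Chgb. On their own Insl5 differed by 0.21, Gcg by -0.06, Pyy by -0.09 and Sst by 0.00, so a higher ratio need not mean a higher hormone. Against Chga, Insl5 had the largest difference between groups, a log2 ratio of 1.94 ± 0.31 in Control and 2.47 ± 0.33 in SiglecXII (SD, n = 4 each), or 0.53 higher. All 4 SiglecXII samples lay above the Control mean, and SiglecXII 1 lay among the controls. The exact permutation test (two-sided) gave p = 0.0857, and 0.429 after adjustment over 6 ratios, where 0.0286 is the smallest p possible. The ratio was 0.29 higher without SiglecXII 3 and 4, and 0.60 higher with Chgb in place of Chga (exact permutation p = 0.114), a reference chosen after seeing the data. Gcg, Pyy and Sst to Chga were higher by 0.26, 0.23 and 0.32 with exact permutation p-values of 0.143, 0.257 and 0.343. Single samples moved these ratios, Gcg from 0.17 without Control 3 to 0.36 without Control 1 (exact permutation p = 0.0286, adjusted 0.171), Pyy from 0.12 without SiglecXII 3 to 0.29 without Control 4, and Sst from 0.18 without Control 2 to 0.50 without Control 4. Chgb and Tph1 to Chga had differences of -0.07 (exact permutation p = 0.457) and -0.04 (p = 0.743), each within the spread of its group and each turning sign in at least 1 alternative. That of Chgb was -0.16 without Control 1 (exact permutation p = 0.0571, adjusted 0.171). For the low values of Tph1 the pseudocount also mattered, and its difference was -0.11 with 0.1 in place of 1. The adjusted p for these 5 ratios ran from 0.429 to 0.743.

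As deposited, the granins were the pair of members that varied together most closely across the 8 samples. Chga and Chgb had r = 0.954 (permutation p = 0.000570, adjusted over 21 pairs 0.0120) and rho = 0.929 (permutation p = 0.00223, adjusted 0.0469), and this was the only pair with an adjusted p of at most 0.05. Without Control 2 and SiglecXII 4, the samples farthest from the median, r was 0.872, and within groups it was 0.935. It was 0.902 without SiglecXII 3 and 4 and 0.809 with both genes taken relative to the median gene. Chga and Tph1 followed with r = 0.872 (permutation p = 0.00501, adjusted 0.0526) and rho = 0.857 (permutation p = 0.0107, adjusted 0.113), and r was 0.739 without the farthest samples. Relative to the median gene the r of Chga and Tph1 was 0.812, level with the 0.809 of the granins, and relative to the pan-epithelial mean it was 0.867 against 0.774 for the granins. Of the 21 pairs, 14 had a positive r.

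The relations of the L-cell transcripts depended on the samples and the scale. Gcg and Insl5 had r = 0.282 over 8 samples (permutation p = 0.487, adjusted 0.682) and rho = 0.262 (permutation p = 0.536, adjusted 0.663), but r = 0.964 without SiglecXII 3 and 4, which were also the samples farthest from the median of Gcg. Over all 8 samples r was 0.721 relative to the median gene and 0.720 relative to the pan-epithelial mean. In those libraries Gcg was low and Insl5 was not, with 29.4 and 31.3 TPM for Gcg beside 139 and 179.8 TPM for Insl5. Insl5 and Sst ran opposite, with r = -0.740 (permutation p = 0.0384, adjusted 0.201) and rho = -0.667 (permutation p = 0.0831, adjusted 0.402), and r was -0.457 without Control 3 and SiglecXII 4, -0.212 relative to the median gene and -0.288 relative to the pan-epithelial mean, but -0.887 within groups.

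Chgb also followed measures of the whole library. In 14 relations chosen after the values were seen, of each tested member with the mean of the pan-epithelial markers and with the median shift, Chgb had the highest r with both over all 8 samples. With the pan-epithelial mean r was 0.885 (permutation p = 0.00243, adjusted 0.0304) and rho was 0.905 (permutation p = 0.00456, adjusted 0.0639), and r was 0.884 without Control 1 and SiglecXII 4, where that of Chga was higher, at 0.899. With the median shift r was 0.858 (permutation p = 0.00434, adjusted 0.0304) and rho was 0.833 (permutation p = 0.0154, adjusted 0.108), falling to 0.627 without SiglecXII 3 and 4. Chga had r = 0.747 with the pan-epithelial mean (permutation p = 0.0373, adjusted 0.130) and 0.781 with the median shift (permutation p = 0.0205, adjusted 0.0958), the latter 0.294 without SiglecXII 3 and 4, with rho of 0.762 (permutation p = 0.0368, adjusted 0.172) and 0.714 (permutation p = 0.0576, adjusted 0.202). The granins were low in SiglecXII 3 and 4, where most genes were low, and the part of the library shift in their difference between groups was not tested.

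**Figure D3:**
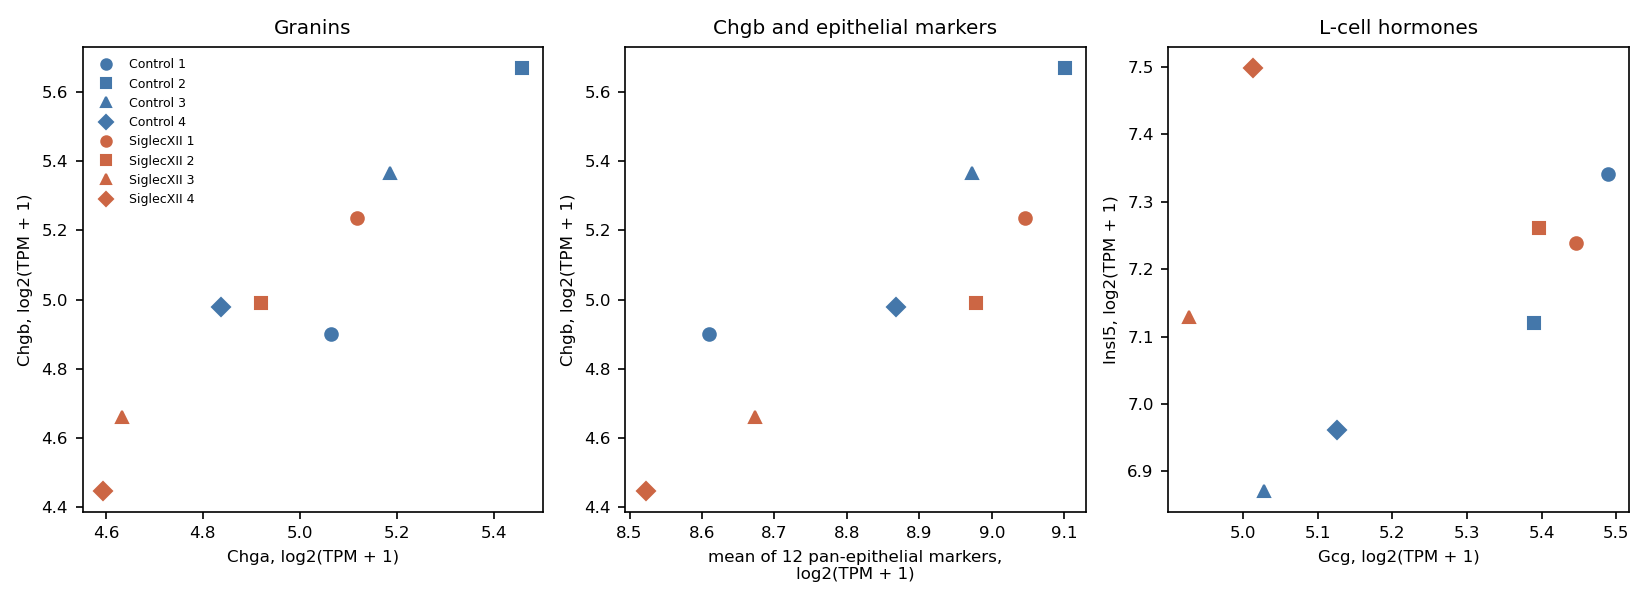
Levels in log2(TPM + 1) of each of the 8 samples (Control blue, SiglecXII orange, marker shape for the replicate number), with Chga against Chgb at left, the mean of 12 pan-epithelial markers against Chgb in the middle, and Gcg against Insl5 at right. The granins follow a line in all samples (r = 0.954), Chgb follows the epithelial mean (r = 0.885), and SiglecXII 4 and SiglecXII 3 lie off the line that the other 6 samples make for Gcg and Insl5 (r = 0.964 without them).

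The genes nearest in pattern to each member were found by the root mean square distance of centred log2 values over the 8 samples, among 12815 candidates. Nearest to Chga were Fastkd5 at a distance of 0.07 and Trim46 and Zfp239 at 0.08 each, beside a spread of 0.27 for Chga itself. Chgb, with a spread of 0.36, was nearest to Baiap2l2 (0.07), Cd14 (0.08) and Cbfa2t3 (0.08). Gcg was nearest to 2900093K20Rik, Llph-ps2 and Map2k3 (0.09 each), Pyy to Mief2 (0.05), Emc6 and Atp5g2 (0.06 each), and Insl5 to Rmdn1 (0.06), Sdcbp2 (0.08) and Dnajc15 (0.09). Sst was nearest to Gm49395 and Fam3c (0.06 each) and Nrde2 (0.08), and Tph1 to Zfp638 (0.10), Rgs16 (0.11) and Gnb5 (0.12). Nearest to the mean of the 7 tested members were Nol3 (0.03), Ptcd2 (0.04), Nprl2, Hnrnpc and Magohb (0.05 each). None of these genes stood in a pathway or marker list. They were picked as the closest of 12815 candidates over only 8 samples, so a small distance by itself shows no relation. A relation of these genes to the members was not tested.

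Genes that act with the members were followed in 8 lists of 118 genes, of which 52 were tested. In limma 6 of the 52 (11.5%, against 8.87% of all tested genes) were lower and 0 higher in SiglecXII at an unadjusted P of at most 0.05, and 0 passed an adjusted p of at most 0.05. That split was 3 higher and 3 lower after quantile normalization, 2 higher and 2 lower relative to the median gene and 2 higher and 6 lower relative to the pan-epithelial markers. Of the 52, 41 (78.8%) were lower and 11 higher as deposited, a share near the 78.1% of all tested genes, with a median of -0.19, but 24 (46.2%, against 38.5% of all tested genes) were lower and 28 higher relative to the median gene, with a median of 0.02. Without SiglecXII 3 and 4, 29 (55.8%, against 49.1%) were lower and 23 higher, and 2 of the 52 (3.85%, against 2.75%) passed unadjusted P. The 6 genes named below for passing unadjusted P all had a limma adjusted p of 0.515 and kept a negative difference in each scaling tried and without SiglecXII 3 and 4.

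Further hormones and transmitters made in gut endocrine cells or nerves formed a list of 17 genes, 9 of them tested, with 1 lower at unadjusted P. That gene was Penk, which encodes enkephalin precursors and is also a neuronal gene. It measured 3.60, 1.59, 1.88 and 3.69 TPM in Control 1 to 4 and 1.34, 1.03, 0.700 and 0.311 TPM in SiglecXII 1 to 4, with no overlap between groups. The limma difference was -0.98 (95% interval -1.56 to -0.40, unadjusted P 0.00414), and it was -0.77 relative to the median gene and -0.71 without SiglecXII 3 and 4. The most abundant genes of the list were Ppy, for pancreatic polypeptide, with 32.0 ± 16.4 TPM in Control and 24.0 ± 3.11 TPM in SiglecXII, and Tac1, for substance P, with 11.8 ± 1.91 and 10.0 ± 1.13 TPM.

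Granins other than the members and prohormone-processing enzymes had 10 of 12 genes tested and 0 past unadjusted P in limma, with a median of -0.19 that became 0.03 relative to the median gene. Pam, which amidates peptides, measured 84.8 ± 15.5 TPM in Control and 76.8 ± 4.98 TPM in SiglecXII, and carboxypeptidase Cpd 51.6 ± 15.4 and 41.5 ± 16.6 TPM. In monoamine handling 6 of 9 genes were tested and 0 passed unadjusted P, with a median of -0.06 that became 0.15 relative to the median gene. Maoa, which degrades serotonin, measured 187 ± 15.3 and 179 ± 23.3 TPM, and Ddc, which completes serotonin synthesis after Tph1, 72.3 ± 25.1 and 67.1 ± 17.8 TPM.

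Other enteroendocrine transcription factors had 10 of 21 genes tested, 2 of them lower at unadjusted P. Nkx2-2, which acts after Neurog3 in several endocrine fates, measured 2.56, 2.55, 2.22 and 3.72 TPM in Control 1 to 4 and 2.04, 1.67, 1.28 and 1.498 TPM in SiglecXII 1 to 4. Its groups did not overlap, and the limma difference was -0.51 (95% interval -0.88 to -0.15, unadjusted P 0.0113). Relative to the median gene it was -0.30 with an unadjusted P of 0.0693, and without SiglecXII 3 and 4 it was -0.38 with 0.0882. Sox4, a factor of early progenitors, went from 10.98 ± 1.78 to 6.46 ± 3.12 TPM, a limma difference of -0.77 (unadjusted P 0.0243) that was -0.30 without SiglecXII 3 and 4 (unadjusted P 0.176). The most abundant factors, Foxa1 and Foxa2, measured 37.7 ± 9.34 and 39.0 ± 6.39 TPM in Control and 33.0 ± 8.68 and 30.3 ± 7.58 TPM in SiglecXII.

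Snap25, part of the machinery that fuses secretory granules with the cell membrane, was the gene of the 8 lists with the smallest unadjusted P. It is also a gene of neurons, whose markers differed by -0.22 in mean log2 with overlap between groups and by 0.00 relative to the median gene. Of these 15 markers 8 stayed under 1 TPM in all samples. The centring adds the same amount to each, so the 0.00 does not show that neurons were level. The part of neurons in the Snap25 difference was not tested. Snap25 measured 2.54, 2.26, 1.89 and 2.24 TPM in Control 1 to 4 and 1.15, 1.12, 1.22 and 1.60 TPM in SiglecXII 1 to 4, again without overlap. The limma difference was -0.51 (95% interval -0.80 to -0.21, unadjusted P 0.00362) and was -0.59 without SiglecXII 3 and 4, while relative to the median gene it was -0.30 with an unadjusted P of 0.160. Its list of vesicle release genes had 7 of 15 tested and no other gene past unadjusted P, and Vamp2 and Syt7 were its most abundant genes, with 25.4 ± 1.96 and 13.01 ± 1.17 TPM in Control and 22.2 ± 3.52 and 12.8 ± 2.17 TPM in SiglecXII.

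Sensors and receptors of the hormones were mostly scarce. Of 16 nutrient and irritant sensors, 4 were tested and 0 passed unadjusted P in limma, and the most abundant were the sodium-glucose transporter Slc5a1 (69.8 ± 4.37 and 65.9 ± 14.5 TPM in Control and SiglecXII) and Gpr35 (17.7 ± 2.52 and 16.0 ± 6.23 TPM). Of 24 receptors for the hormones and serotonin, 18 stayed under 1 TPM in all samples and 4 were tested. Npy1r, a receptor of the family that binds peptide YY, went from 8.18 ± 1.15 to 5.94 ± 1.14 TPM, a limma difference of -0.41 (unadjusted P 0.0325) that was -0.20 relative to the median gene (unadjusted P 0.0800), and Sstr1 measured 14.9 ± 4.21 and 12.7 ± 3.27 TPM (limma unadjusted P 0.352). Of 4 genes of hormone breakdown 2 were tested. Ide, the insulin-degrading enzyme, went from 14.7 ± 8.11 to 6.29 ± 2.47 TPM, a limma difference of -1.01 (unadjusted P 0.0327) that was -0.59 without SiglecXII 3 and 4 (unadjusted P 0.266), and Dpp4, which inactivates glucagon-like peptides, measured 11.1 ± 1.58 and 10.5 ± 2.89 TPM.

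**Figure D4:**
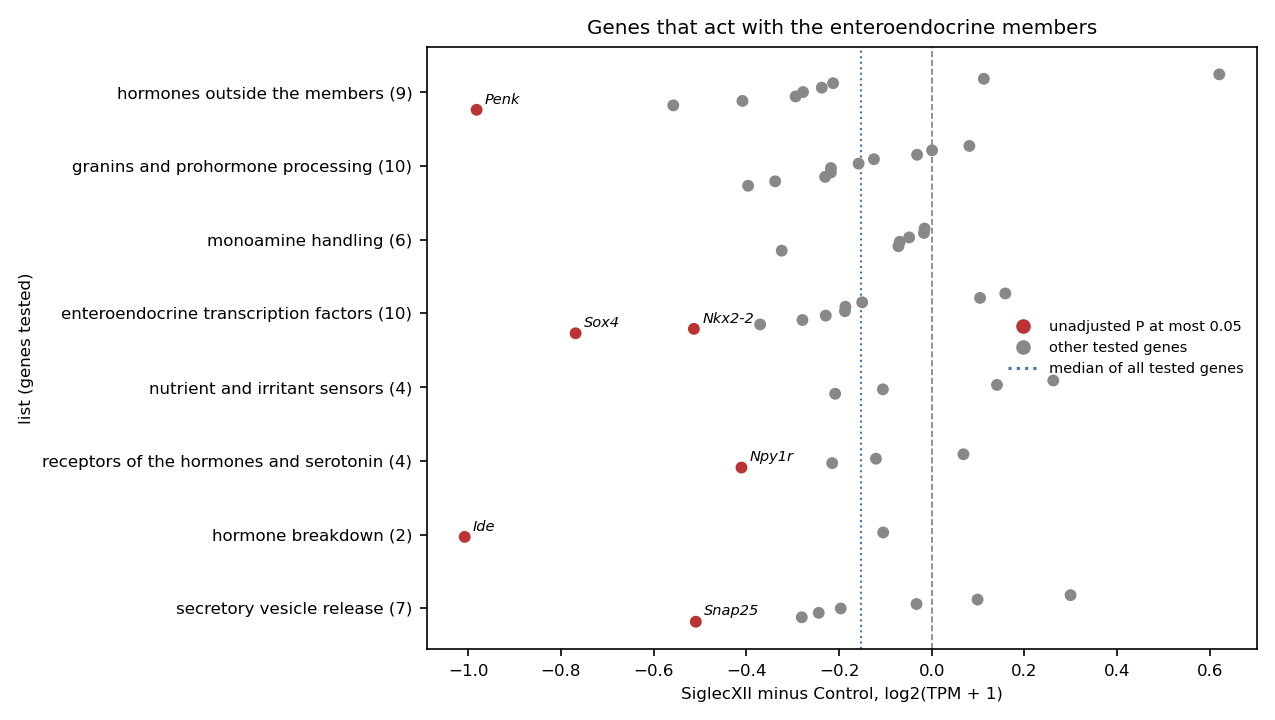
Difference between groups (SiglecXII minus Control, log2(TPM + 1), horizontal axis) of the 52 tested genes that act with the members, 1 row per list, with genes at an unadjusted limma P of at most 0.05 in red and named. The dotted line is the median of all tested genes at -0.15, and 41 of the 52 genes lie under 0 as deposited, against 24 relative to the median gene.

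Markers of other cell types were read beside the members in 12 lists, each tested by exact permutation (two-sided) with adjustment over the lists. Smooth muscle was lower in SiglecXII by -0.65 (exact permutation p = 0.0571, adjusted 0.137; Tagln most abundant at 212 TPM), immune cells by -0.57 (exact permutation p = 0.0571; Lyz2 at 15.1 TPM), crypt stem and proliferating cells by -0.51 (exact permutation p = 0.0857, adjusted 0.147; Pcna at 73.8 TPM) and enteric neurons by -0.22 (exact permutation p = 0.0571; Uchl1 at 4.52 TPM). Relative to the median gene these were -0.43, -0.35, -0.30 and 0.00. Single samples moved them, with smooth muscle at -0.39 and crypt cells at -0.36 without SiglecXII 4, and immune cells at -0.31 and enteric neurons at -0.15 without Control 1. Tuft cells differed by -0.16 (exact permutation p = 0.0571; Trpm5 at 1.14 TPM), fibroblasts by -0.16 (p = 0.543; Dcn at 17.03 TPM), glia by -0.09 (p = 0.171; Erbb3, also an epithelial gene, at 64.8 TPM) and the pan-epithelial markers by -0.08 (p = 0.686), and each of these 4 turned positive relative to the median gene. The centring adds the same amount to every gene, also near 0 TPM, so it decides nothing for lists of mostly scarce genes. Of the tuft, neuron and glia markers, 2 of 8, 3 of 15 and 2 of 6 were tested. The fibroblast difference ran from -0.03 without Control 4 to -0.37 without Control 2, and the pan-epithelial difference was 0.01 without SiglecXII 4. Absorptive colonocytes (0.00, exact permutation p = 0.971) and goblet cells (0.08, p = 0.400) were level or higher in both scales, at 0.21 and 0.30 relative to the median gene. The goblet cell difference as deposited was 0.02 without SiglecXII 4. The adjusted p over the 12 lists ran from 0.137 to 0.971.

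The crypt stem and proliferating markers summed to 147, 221, 202 and 193 TPM in Control 1 to 4 and to 166, 151, 138 and 92.0 TPM in SiglecXII 1 to 4, with SiglecXII 4 the lowest, as it was for Chga, Chgb, Pyy, Sst and Neurod1. The part of crypt cells in the levels of Neurog3, Neurod1, Nkx2-2 and Sox4 was not tested. The markers of pancreatic tissue, whose islets also make Gcg, Sst and Ppy, differed by 0.05 (exact permutation p = 0.0857, adjusted 0.147). Relative to the median gene the difference was 0.26, by the amount that the centring adds also to genes at 0. Of these markers Ins1, Cpa1 and Pnlip were at 0 in all 8 samples, and Cela1, at 946 TPM the most abundant gene of the list, was the only 1 of its 7 genes above 1 TPM in any sample.

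**Figure D5:**
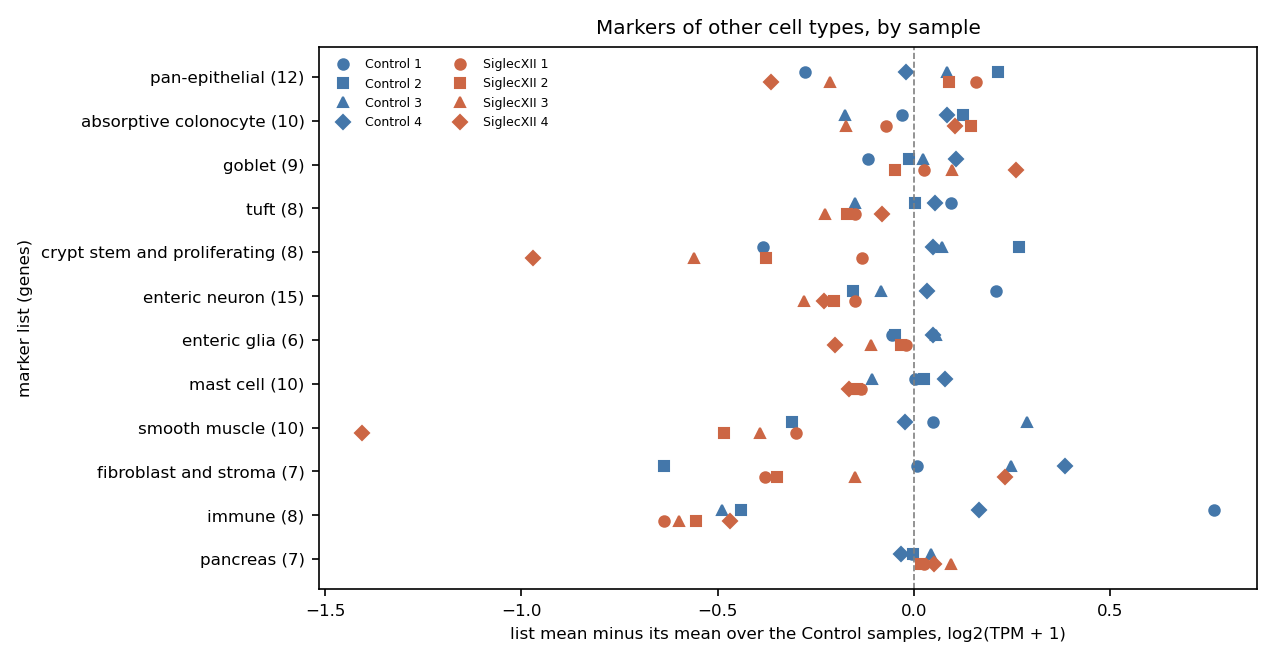
Mean log2(TPM + 1) of each of 12 marker lists in every sample, less its mean over the Control samples (horizontal axis), with Control in blue, SiglecXII in orange and the marker shape for the replicate number. SiglecXII 4 lies lowest for the smooth muscle, crypt and pan-epithelial markers, and the 4 mast cell means in SiglecXII lie under all 4 controls as deposited but not relative to the median gene. There the mast cell difference turned to 0.07, by an amount that the centring adds to every gene alike.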

How the data were processed

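Bulk RNA of distal colon from 4 Control and 4 SiglecXII samples was used. The authors quantified reads with kallisto (0.45.0 per the labels; the methods give another version and a human build, while the gene identifiers are of mouse), and the deposited values are log2(TPM + 1) per gene. Counts, and so the DESeq2 step of the authors, were not used here. Genes with at least 1 TPM in at least 4 samples were fitted with limma 3.58.1 in R 4.3.3 (pseudocount 1, trended variance, Benjamini-Hochberg adjustment over 13164 genes, threshold 0.05). Ratios and marker means were compared by two-sided exact permutation and correlations by exact permutation of pairings, in Python 3.11.15 with numpy 2.4.6, pandas 2.3.3, scipy 1.17.1 and matplotlib 3.10.9. Named genes were all members, the 2 most abundant genes and all genes at an unadjusted P of at most 0.05 in each pathway list, the most abundant gene and those at 0 in each marker list, and the nearest patterns (3 per member, 5 for their mean). Members and lists were chosen with earlier results of these data known. Alternatives covered filter, pseudocount, scaling, weights, moderation, replicate block and left-out samples.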

Additional observations from a re-analysis of the deposited data

Results flagged for a closer look

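Among 96 groups of 4 samples examined (48 values in each of the 2 groups), 2 held a sample whose gap to its nearest neighbor, divided by the range of the group, exceeded 0.829, and chance alone gives this in about 1 in 20 groups. Neurod1 in Control had a gap ratio of 0.976, with Control 2 at 1.14 (log2(TPM + 1)) above the other controls at 0.89, 0.90 and 0.90. The mean of the smooth muscle markers in SiglecXII had a gap ratio of 0.834, with SiglecXII 4 at 4.34 below the other samples at 5.45, 5.26 and 5.35.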

How the results depend on the processing

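Of 132 member differences recomputed under the alternatives, 118 kept their direction and their side of the adjusted threshold, and 14 changed sign. In limma 8 of the 132 passed unadjusted P and 0 passed adjusted p, with a lowest adjusted value of 0.238. Of all 13164 tested genes, 1167 (8.87%) passed unadjusted P in the main fit. Over the alternatives in which all genes were counted, 362 to 2365 genes passed. The 132 values reuse the same samples, so they are not independent tests. They include an alternative chosen after seeing the data, in which all genes were not counted. Chga (-0.42 to -0.11), Chgb (-0.53 to -0.12), Tph1 (-0.50 to -0.12) and Insl5 (0.14 to 0.42) kept their direction in all alternatives tried.

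Gcg turned to 0.072 with quantile normalization, 0.15 with median centring, 0.020 with pan-epithelial centring, 0.17 with array weights, 0.16 without both SiglecXII 3 and 4, and 0.24 without these and Control 1, a choice made after seeing the data; leaving out 1 sample gave -0.15 to 0.027. Pyy turned to 0.12 with median centring. Sst ranged from -0.14 to 0.16 with 1 sample left out. The ratio of Chgb to Chga was 0.0025 without both SiglecXII 3 and 4, and that of Tph1 to Chga was 0.031 with Chgb as the reference and -0.094 to 0.042 with 1 sample left out. The cause was not tested.

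Genes past unadjusted P numbered 699 with a filter at 5 TPM, where fewer genes were tested, 2043 without a filter, 1851 with array weights, 362 without both SiglecXII 3 and 4, and 483 to 2365 with 1 sample left out. Genes past adjusted p numbered 3 with the filter at 5 TPM, 3 without a filter, 18 with array weights, 3 without variance moderation, 2 without both SiglecXII 3 and 4, and 2 to 6 with 1 sample left out. Members past unadjusted P numbered 1 of 7 with pan-epithelial centring (14.3%, against 9.99% of all tested genes) and 1 of 7 with array weights (14.3%, against 14.1%). They numbered 1 of 7 without Control 1 and SiglecXII 3 and 4, where all genes were not counted. With 1 sample left out they numbered 0 to 2 of 7, with 2 without Control 4 and 2 without SiglecXII 1. There 664 and 2365 of all 13164 tested genes passed. Pathway genes past unadjusted P numbered 3 of 32 with the filter at 5 TPM, beside 699 of 9438 tested genes, and 11 of 116 without a filter, beside 2043 of 31352. They numbered 10 of 52 with array weights (19.2%, against 14.1% of all tested genes) and 2 of 52 without both SiglecXII 3 and 4 (3.85%, against 2.75%). With the pseudocount at 0.1 Neurod1 moved to -0.55 and Neurog3 to -0.80. The cause was not tested.

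With the replicate number as a block, 945 genes passed unadjusted P, 130 higher and 815 lower, 4 passed adjusted p and 0 members passed either in limma; the numbers are not known to pair animals. Read depth is not recoverable from TPM, so its limit on Cck, Neurod1 and Neurog3 could not be given.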
